A study of Mus musculus with 4 samples.

Results

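The testis-specific serine kinases were described in cultured mouse pachytene spermatocytes through the 6 genes listed under the symbols Tssk1 to Tssk6, which were taken by symbol from the 23420 genes of the deposited table. RNA was sequenced from wild-type spermatocytes of B6 mice of 23 weeks of age, sorted by FACS with a DNA-binding dye and then kept for 24 h in DMSO (Ctrl) or in 10 μM AZ20, an inhibitor of the kinase ATR. Each condition had 2 libraries of 15000 cells. Per the methods, cells from the same mouse went into both conditions. Libraries with the same number were therefore taken as a pair, which the labels do not state. Differences of mouse, sort and culture between the pairs cannot be told apart. Reads recovered on genes numbered 13991204 and 15877786 for Ctrl, and 20262853 and 18572223 for AZ20. Levels are given in TPM (reads divided by gene length and scaled to a sum of 1000000 in each library).

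TSSK proteins are serine/threonine kinases of the calmodulin-dependent kinase branch that are found almost only in the testis. They act mainly after meiosis, in spermatids, where the round cell builds its flagellum and replaces its histones by protamines, and loss of TSSK1 and TSSK2 together, of TSSK3 or of TSSK6 makes male mice sterile. TSKS is a substrate of TSSK1 and TSSK2, ODF2 of the sperm outer dense fibers is a substrate of TSSK4, and the co-chaperone TSACC works with HSP90 to activate TSSK6. Pachytene spermatocytes are in the meiotic stage before these events, and the purpose of the AZ20 treatment in the study was to ask what ATR activity does once the sex chromosomes have been silenced. The 6 genes lie on autosomes.

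Tssk1 and Tssk2 are neighbours without introns on the plus strand of chromosome 16 of GRCm38, at chr16:17894223-17897922 and chr16:17898637-17900024 in GENCODE. Tssk3 lies on the minus strand at chr4:129489014-129491022, Tssk4 on the plus strand at chr14:55650184-55652539, Tssk5 on the minus strand at chr15:76371952-76374938 and Tssk6, also without introns, on the plus strand at chr8:69902184-69903518. The lengths behind the TPM values, rounded to whole bases, were 1451, 1388, 1034, 1420, 1514 and 1304 bases for Tssk1 to Tssk6. For Tssk1 this is the RefSeq transcript, since the GENCODE transcript continues further in its 3′ part. The length of Tssk6 is shorter than its annotated span, and the reason was not tested. The open reading frames of Tssk1 and Tssk2 were identical at 82.0% of aligned bases, with a longest shared run of 113 bases, whereas the other 14 pairs lay between 61.4% and 66.9% with shared runs of 14 bases or fewer. Only reads with a unique alignment were counted. How many reads of Tssk1 and Tssk2 this left out was not tested. The first part of Tssk6, chr8:69902184-69902558, overlaps an annotated exon of Ndufa13, a respiratory chain gene of the opposite strand with 518 to 572 TPM. An exon of Yjefn3, also of the opposite strand, overlaps it up to position 69902712. The library kit is not stated to keep the strand, and unstranded reads there could come from either strand.

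The 250 bases before the annotated start were read from the RefSeq promoter table (GRCm38.p6), which held 5 of the 6 genes and no entry for Tssk5. Those of Tssk1 (chr16:17893953-17894202, plus strand), Tssk2 (chr16:17898387-17898636, plus strand) and Tssk3 (chr4:129490771-129491020, minus strand) are shown because these are the members with the largest differences between libraries. The Tssk3 window precedes the start that this table lists for the gene, and it lies inside both the first exon of the GENCODE transcript and the longer RefSeq span of the gene, which ends at position 129491730. Capitals mark matches to TGACNTCA on either strand, which resembles the cAMP response element (CRE) bound by CREM, a transcription factor of spermatids.

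Tssk1: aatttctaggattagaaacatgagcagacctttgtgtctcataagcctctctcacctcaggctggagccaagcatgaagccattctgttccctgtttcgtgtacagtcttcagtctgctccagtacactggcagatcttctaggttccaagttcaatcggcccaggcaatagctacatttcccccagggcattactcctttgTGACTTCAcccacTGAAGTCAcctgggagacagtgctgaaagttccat

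Tssk2: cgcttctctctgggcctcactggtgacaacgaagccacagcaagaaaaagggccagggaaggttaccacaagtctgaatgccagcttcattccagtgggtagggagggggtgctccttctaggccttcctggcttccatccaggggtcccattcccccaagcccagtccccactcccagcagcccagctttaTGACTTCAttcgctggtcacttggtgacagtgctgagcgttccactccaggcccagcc

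Tssk3: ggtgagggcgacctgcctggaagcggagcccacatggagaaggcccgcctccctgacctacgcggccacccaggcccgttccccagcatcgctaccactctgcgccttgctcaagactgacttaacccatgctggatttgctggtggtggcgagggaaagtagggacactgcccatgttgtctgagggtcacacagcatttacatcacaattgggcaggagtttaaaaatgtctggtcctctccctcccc

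The Tssk1 window held the motif at position -48 on the plus strand and at position -35 on the minus strand, counted from the first base of the transcript, and the Tssk2 window held it at position -58. The windows of Tssk3, Tssk4 and Tssk6 held 0 matches. Of 32851 promoters of the same length in the table, 7.49% held TGACNTCA. The full CRE, TGACGTCA, was in 0 of the 5 windows and in 1.55% of all promoters, and CAGTTG, the core bound by the meiotic factor A-MYB, was in 0 of the 5 and in 11.1% of all. The motifs were chosen after the sequences had been seen, and a match is a description of letters only.

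All 6 kinase genes were at low levels in these meiotic cells. Tssk2 was the highest by its mean over the 4 libraries, at 5.24 TPM, followed by Tssk1 at 2.98, Tssk3 at 1.90, Tssk4 at 1.55, Tssk6 at 1.20 and Tssk5 at 0.354 TPM. Among the genes above 0 in a library, the members lay between the percentiles 16.1 and 65.3. This order is not separated at its upper end. The ranges of Tssk2 and Tssk1 overlapped in both conditions, as did those of Tssk1 and Tssk3, of Tssk3 and Tssk4, and of Tssk4 and Tssk6. Tssk5 lay below Tssk4 and Tssk6 in every library of each condition.

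Tssk2, which encodes the partner kinase of TSSK1, had 5.36 and 1.25 TPM in the Ctrl libraries 1 and 2, and 10.6 and 3.79 TPM in the AZ20 libraries, from 75, 20, 213 and 69 reads. Within each condition the first library was the higher, and within each pair the AZ20 library was the higher, so the lowest value was Ctrl replicate 2 and the highest AZ20 replicate 1. Tssk1 had 2.60 and 2.09 TPM in Ctrl and 6.11 and 1.10 TPM in AZ20, from 38, 35, 129 and 21 reads. The AZ20 libraries of Tssk1 stood on both sides of the Ctrl libraries. Tssk3, a kinase needed for male fertility, had 2.49 and 0.335 TPM in Ctrl and 4.12 and 0.663 TPM in AZ20. It showed the same order of libraries as Tssk2, on 26, 4, 62 and 9 reads, and the 4 reads of Ctrl replicate 2 allow 1.09 to 10.2 reads by counting error alone (exact 95% Poisson interval, which covers counting error only).

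Tssk4, the kinase of ODF2, had 1.26 and 1.34 TPM in Ctrl and 2.03 and 1.56 TPM in AZ20, from 18, 22, 42 and 29 reads. Both AZ20 libraries were above both Ctrl libraries, and the libraries of a condition were close to each other. Tssk6, which acts in the packing of sperm chromatin, had 0.532 and 1.26 TPM in Ctrl and 1.90 and 1.11 TPM in AZ20, and the conditions overlapped. Tssk5 had 0.458 and 0.344 TPM in Ctrl and 0.363 and 0.252 TPM in AZ20. With 8 reads or fewer in each library, Tssk5 did not reach a mean of 1 TPM in either condition and was not tested. The summed level of Tssk1, Tssk2 and Tssk3, a grouping made after the values were seen, was 10.4 and 3.68 TPM in Ctrl and 20.8 and 5.55 TPM in AZ20, against 2.25, 2.95, 4.30 and 2.92 TPM for the other three in the same order.

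**Figure D1:**
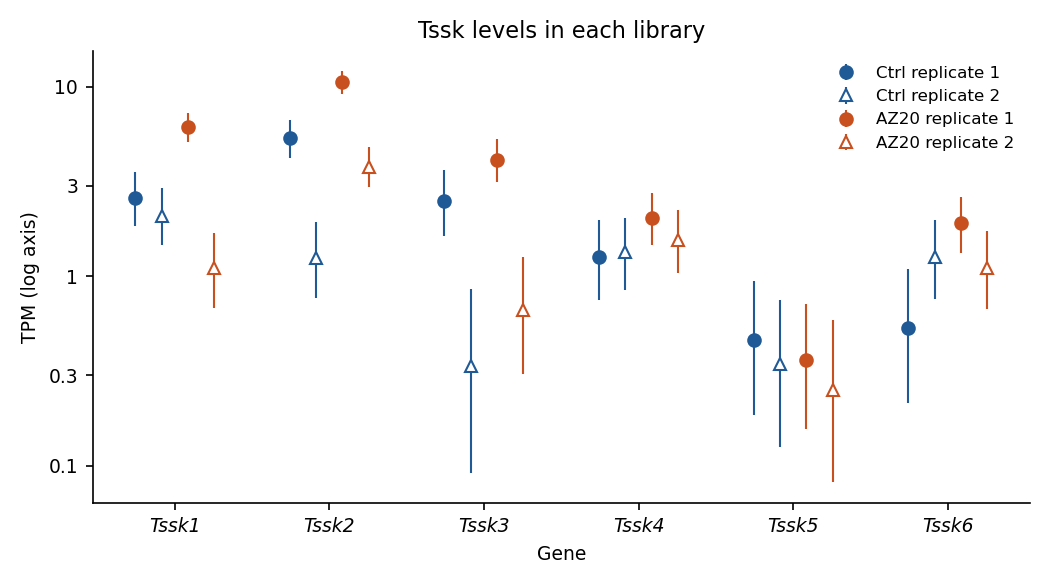
Level of each Tssk gene (TPM, log axis) in the 4 libraries, with exact 95% Poisson intervals of the reads as bars (counting error only). Tssk2 spans 1.25 to 10.6 TPM and its replicate 1 libraries (filled circles) lie above the replicate 2 libraries (open triangles) of the same condition, whereas Tssk4 stays between 1.26 and 2.03 TPM.

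AZ20 and Ctrl were compared to ask whether the kinase genes responded to ATR inhibition. None of the 5 tested members was called. The test was limma on log2(TPM + 1), over the 10316 genes whose mean was above 1 TPM in Ctrl or AZ20. Called genes passed 2 thresholds, a 2-fold change on this scale and an adjusted p (Benjamini-Hochberg) under 0.05. The scale understates changes of genes as low as these. Of the 5 tested members 0 were called, 0 had an unadjusted p under 0.05, and limma voom on the recovered reads also called 0. Among all tested genes 2.33% were called, so 0 of 5 does not set the members apart. That share covers all chromosomes. With its own test, the paper reports many upregulated X-linked genes and few differentially expressed genes on autosomes. The share on autosomes alone was not computed here. An unadjusted p under 0.05 was held by 945 of all 10316 tested genes. The median change was 0.41 for the 5 members and 0.07 for all tested genes.

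The mean of Tssk2 was 3.30 ± 2.90 TPM in Ctrl and 7.17 ± 4.78 TPM in AZ20 (SD, n = 2 each), a change of log2(TPM + 1) of 0.98 (95% interval -0.42 to 2.37, limma adjusted p = 0.727). Within the pairs the change was 0.86 and 1.09, or 1.97-fold and 3.03-fold in TPM. With the replicate number as a block in the fit, the change of Tssk2 kept its size and had an interval of 0.38 to 1.57 (limma adjusted p = 0.0411). It thus passed the threshold on p but not that on fold, as the only member of 5 with an adjusted p under 0.05 in the fit with the replicate block, where 4.61% of all tested genes were higher at that adjusted p. The result did not hold with voom on the recovered reads and the same block, a fit added after the data were seen (change 1.13, limma adjusted p = 0.335).

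The changes of the other members had intervals that included 0 with and without the block. The mean of Tssk6 was 0.898 ± 0.517 TPM in Ctrl and 1.50 ± 0.557 TPM in AZ20 (SD, n = 2 each), a change of 0.41 on the log2(TPM + 1) scale (95% interval -0.46 to 1.28). Its pairs went apart, at 0.92 and -0.10. Tssk3 had a change of 0.44 (-1.10 to 1.97), and 0.55 and 0.32 in its pairs. Tssk4 had a change of 0.28 (-0.45 to 1.0), and 0.43 and 0.13 in its pairs. Tssk1 had a change of 0.21 (-1.09 to 1.52), with 0.98 in the first pair and -0.56 in the second. Adjusted p-values of these members were between 0.831 and 0.956 (limma, Benjamini-Hochberg). Tssk2, Tssk3 and Tssk4 were higher with AZ20 in both pairs, a direction that 36.1% of all tested genes showed. The intervals of Tssk1, Tssk2, Tssk3 and Tssk6 without the block hold both no change and changes above 2-fold on this scale. That of Tssk4 ends at 0.998, just under 2-fold on a scale that understates such low genes, so larger changes in TPM are not excluded.

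**Figure D2:**
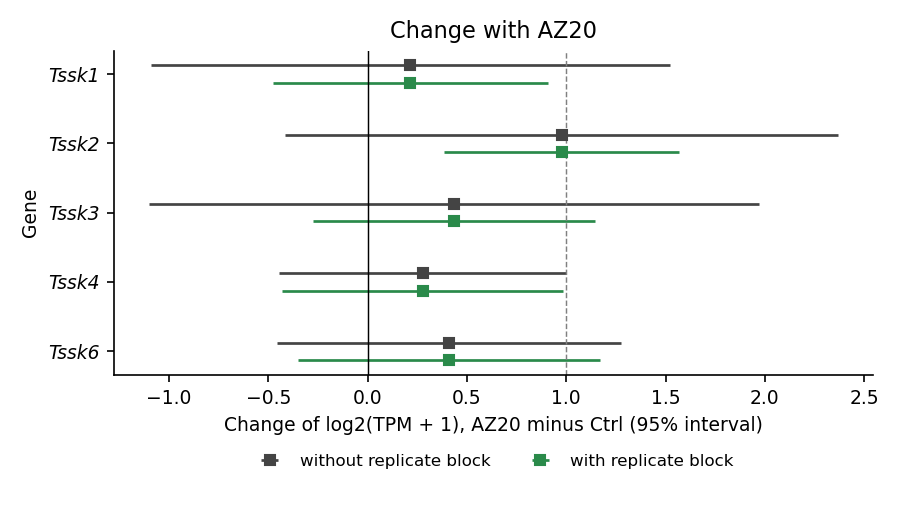
Change of log2(TPM + 1) between AZ20 and Ctrl for the 5 tested members, with 95% intervals, without (dark grey) and with (green) the replicate number as a block, and a dashed line at the 2-fold threshold. The interval of Tssk2 with the block, 0.38 to 1.57, is the one that does not include 0.

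Tssk1, Tssk2 and Tssk3 had larger fitted differences between the replicate pairs than between the conditions, whereas Tssk4 and Tssk6 did not. Tssk2 was 4.29-fold higher in replicate 1 than in replicate 2 in Ctrl and 2.79-fold higher in AZ20. For Tssk3 the ratios were 7.43 and 6.22, and for Tssk1 they were 1.24 and 5.54. The pairs were compared with limma in the fit that also holds the condition, a comparison added after the data were seen. Each replicate number has 1 pair of libraries, so these intervals and p-values rest on how alike the difference was in the 2 conditions. They do not measure the spread between mice or sorts. Tssk2 was higher in replicate 1 by 1.38 on the log2(TPM + 1) scale (95% interval 0.79 to 1.98, limma adjusted p = 0.00341) and Tssk3 by 1.51 (0.80 to 2.21, limma adjusted p = 0.00944). These 2 of the 5 tested members were called higher in replicate 1 and 0 were called lower, beside 1.89% and 0.281% of all tested genes.

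Tssk1 had a difference of 0.99 (95% interval 0.30 to 1.68) and was not called (limma adjusted p = 0.154). Tssk4 and Tssk6 had 0.10 (-0.61 to 0.81) and -0.05 (-0.81 to 0.71). The calls of Tssk2 and Tssk3 were lost with a pseudocount of 0.01 (limma adjusted p = 0.101 and 0.111), with voom on the recovered reads (0.215 and 0.276) and without the condition in the fit (0.880 and 0.761), and that of Tssk3 also with quantile normalization (0.0535). The direction was the same in each of these fits. Calls over all tested genes fell too, from 195 higher and 29 lower to 106 and 20 with quantile normalization. They were 41 and 1 with a pseudocount of 0.01, 7 and 1 with voom, and 0 without the condition.

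Genes of spermatids also differed between the replicate pairs. The 20 listed spermatid genes, all tested, had a median difference of 1.04 between replicate 1 and replicate 2 on the log2(TPM + 1) scale, against 0.99 for the 5 tested Tssk genes and 0.03 for all tested genes. Of the 20 genes, 12 were called higher in replicate 1 and 0 lower, beside 1.89% and 0.281% of all tested genes. The number called was 7 with quantile normalization, 6 with a pseudocount of 0.01, 2 with voom on the recovered reads and 0 without the condition in the fit, where 0 of all 10316 genes were called. Over all 10316 genes, 106 were called higher and 20 lower with quantile normalization, 41 and 1 with that pseudocount, and 7 and 1 with voom. The 12 were Tnp1 and Tnp2, the transition proteins that replace histones, Prm1, Prm2 and Prm3 of the protamine cluster, Hils1, a spermatid linker histone, Spaca1 and Spaca3 of the acrosome, Gapdhs, the sperm glycolytic enzyme, Smcp of the mitochondrial capsule, Akap3 of the fibrous sheath and Sun5 of the sperm neck. In both conditions 17 of the 20 were higher in replicate 1, as were 3 of the 5 tested Tssk genes (Tssk1, Tssk2 and Tssk3), the untested Tssk5 and 30.3% of all tested genes. Tnp1 had the largest difference of the list, 1.69, with 44.4 and 10.2 TPM in Ctrl and 65.4 and 24.9 TPM in AZ20.

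**Figure D3:**
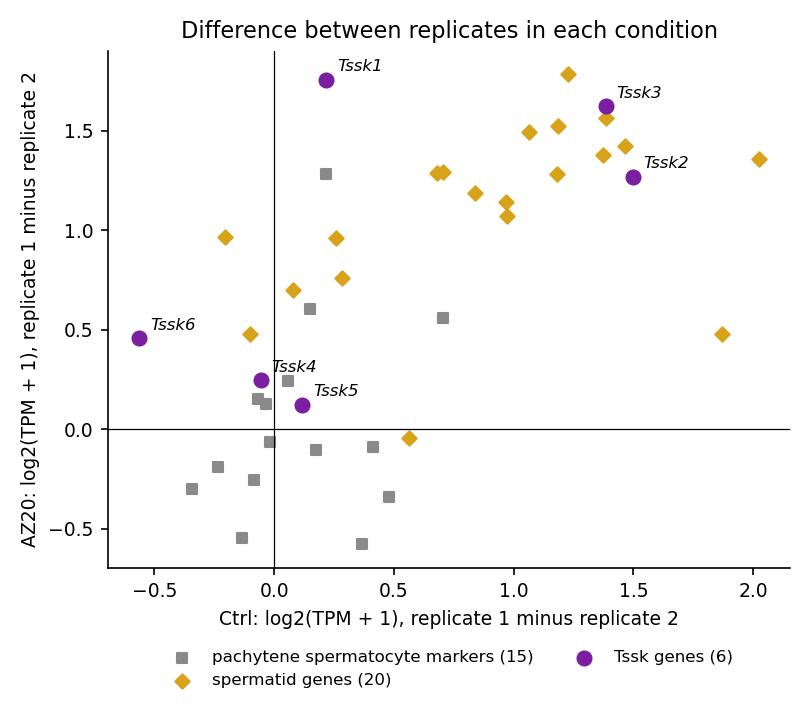
Difference of log2(TPM + 1) between replicate 1 and replicate 2, in Ctrl (horizontal axis) and in AZ20 (vertical axis), for the 6 Tssk genes, 20 spermatid genes and 15 pachytene markers. Tssk2 and Tssk3 lie among the spermatid genes at the upper right, Tssk1 is high in AZ20 only (1.76 against 0.22 in Ctrl), and Tssk4, Tssk5 and Tssk6 lie nearer 0.

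Between AZ20 and Ctrl, the 20 spermatid genes had a median change of 0.70 on the log2(TPM + 1) scale. Of the 20, 0 were called by limma, 0 had an unadjusted p under 0.05 and 0 were called by voom. Over all tested genes, limma called 2.33%, and 945 of 10316 had an unadjusted p under 0.05. In both pairs 13 of the 20 were higher with AZ20, as were 36.1% of all tested genes. Changes ranged from -0.75 for Akap3 to 1.15 for Spem1, which had 0.769 and 0.0841 TPM in Ctrl and 3.80 and 0.961 TPM in AZ20. With the replicate block, Prm1 (change 1.11) and Prm3 (change 1.01) were called, beside 4.33% of all tested genes. In that fit 5 of the 20 were higher at an adjusted p under 0.05 (4.61% of all tested genes), and 14 had an unadjusted p under 0.05 in either direction (13.3% of all). The summed level of the list was 1202 and 921 TPM in Ctrl and 1722 and 816 TPM in AZ20, of which the highest gene, the flagellar Tekt1, had 375, 402, 365 and 262 TPM, and 0 of the 20 genes were at 0 in all libraries. The part of these spermatid genes, or of spermatids in the sorted cells, in the Tssk values was not tested. In such bulk libraries more cells of a type and more RNA per cell cannot be told apart.

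Markers of the labelled cell type were high in each library. The 15 pachytene markers summed to between 11762 and 12013 TPM, with Ldhc, the germ cell lactate dehydrogenase, at 5216 to 6178 TPM. By limma 0 of the 15 were called between AZ20 and Ctrl (0 at an unadjusted p under 0.05, and 0 by voom) and 0 between the pairs. Over all tested genes, limma called 2.33% between AZ20 and Ctrl, where 945 of 10316 had an unadjusted p under 0.05. Between the pairs it called 1.89% higher and 0.281% lower in replicate 1. An unadjusted p under 0.05 between the pairs was held by 1118 of all 10316 tested genes and by 2 of the 15 markers. These were Pgk2 (difference 0.63) and the cyclin Ccna1 (0.75), both higher in replicate 1. By fitted difference, 9 of the 15 markers were higher in replicate 1 and 6 lower. Changes of the 15 markers with AZ20 ranged from -0.54 for Ccna1 to 0.29 for the axis protein Sycp3. Of 29 markers of other testis cells (spermatogonia, Sertoli, Leydig and peritubular myoid cells, and macrophages), 22 were below 1 TPM in each library and 10 were at 0 throughout, among them Sox9, Wt1, Cyp17a1, Insl3, C1qa, Stra8 and Dmrt1. Besides Ctsl, those that reached 1 TPM in a library were Tagln (1.59 to 2.83 TPM), Star (0.866 to 2.31) and Vim (0.594 to 1.70). Acta2 (0.374 to 1.33 TPM), Cd68 (0.0860 to 1.28) and Gfra1 (0.154 to 1.11) did so too. The 29 summed to 11.0 and 19.0 TPM in Ctrl and 15.7 and 18.8 TPM in AZ20, with the lowest sum in Ctrl replicate 1. For scale, the 6 Tssk genes summed to 12.7 and 6.63 TPM in Ctrl and 25.1 and 8.47 TPM in AZ20. Of the 5 tested markers of other cells, limma called 0 between AZ20 and Ctrl. An unadjusted p under 0.05 was held by 0 of them, and voom called 0. The shares over all tested genes are those given above for the pachytene markers. Between the replicate pairs 0 of these 5 markers were called. Lower fitted values in replicate 1 were seen for all 5, with a median difference of -0.40, and for 4719 of all 10316 tested genes. The unadjusted p was under 0.05 for 1 of the 5 markers and for 1118 of all tested genes. That marker was Ctsl, a lysosomal protease listed for Sertoli cells, with 4.58 and 11.0 TPM in Ctrl and 5.76 and 7.66 TPM in AZ20. The part of these cells in the Tssk values was not tested.

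The proteins that work with the kinases were, as RNA, mostly far above them. Tsacc, the co-chaperone of TSSK6, had 964 and 837 TPM in Ctrl and 896 and 857 TPM in AZ20, while Tssk6 did not exceed 1.90 TPM. Of the listed HSP90 genes, Hsp90aa1 had 1073 to 1341 TPM and Hsp90ab1 had 101 to 127 TPM. The substrate Odf2 had 180 to 221 TPM, Ppp1cc, a phosphatase that binds TSKS, had 176 to 208 TPM, Spag16 of the sperm axoneme had 93.3 to 113 TPM and Crem had 108 to 139 TPM. Tsks itself had 0.693 and 0.233 TPM in Ctrl and 0.999 and 0.861 TPM in AZ20, and was not tested because its mean stayed under 1 TPM. Of these 12 genes, Tsks was thus the only one at the level of the kinases' lower members, while Izumo1, needed for sperm-egg fusion, Creb1 and Pdpk1, a kinase known to activate TSSK3, had 2.26 to 6.22 TPM.

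Between AZ20 and Ctrl, limma called 2.33% of all tested genes, and 945 of 10316 had an unadjusted p under 0.05. Of the 11 partner genes tested, 0 were called by limma, with 0 at an unadjusted p under 0.05 and 0 by voom. Their median change was -0.03. The lowest change was that of Crem (-0.28) and the highest that of Izumo1 (0.38). Between the replicate pairs limma called 0 of the 11, beside 1.89% higher and 0.281% lower in replicate 1 over all tested genes. The unadjusted p was under 0.05 for 1 of the 11, H2afx, the histone variant H2AX, at 0.59. H2afx had 28.7 and 26.5 TPM in Ctrl and 47.2 and 21.9 TPM in AZ20. An unadjusted p under 0.05 between the pairs was held by 1118 of all 10316 tested genes. The differences of Tsacc and Odf2 between the pairs were 0.13 and 0.14, against 1.38 for Tssk2.

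**Figure D4:**
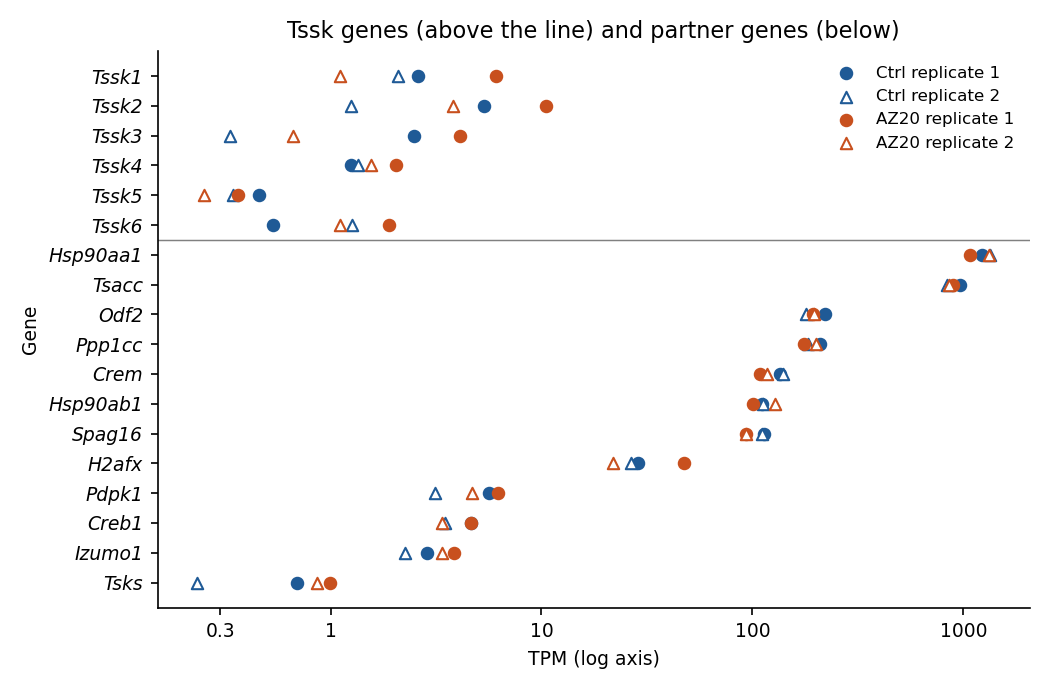
Levels (TPM, log axis) of the 6 Tssk genes and of 12 genes of partners, substrates and chaperones in the 4 libraries. Tsacc lies between 837 and 964 TPM in each library and Tsks between 0.233 and 0.999 TPM, beside at most 10.6 TPM for any Tssk gene.

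Other kinases related by sequence were compared as a list of 23, of which 15 were tested. Stk33, a kinase of the germline, was the highest at 218 and 172 TPM in Ctrl and 179 and 183 TPM in AZ20. Stk11, the upstream kinase LKB1, had 32.5 to 43.8 TPM. With AZ20, 945 of all 10316 tested genes had an unadjusted p under 0.05. By limma 0 of the 15 kinases were called with AZ20, beside 2.33% of all tested genes. Of the 15, 1 had an unadjusted p under 0.05 and voom called 0. The changes ran from -0.40 for the AMPK subunit Prkaa1 to 0.90 for Snrk, and the median was 0.13. Between the replicate pairs limma called 0 of the 15, beside 1.89% higher and 0.281% lower in replicate 1 over all tested genes. There the unadjusted p was under 0.05 for 0 of the 15 and for 1118 of all 10316 tested genes. Differences of the 15 kinases lay between -0.31 and 0.65, with a median of -0.03.

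The genes closest to Tssk2 in level and order over the 4 libraries, by Euclidean distance in log2(TPM + 1) over the tested genes, were Iqcf4 (distance 0.61), 1700016D06Rik (0.61) and 1700065I17Rik (0.64). Iqcf4 had 5.18 and 0.715 TPM in Ctrl and 8.89 and 2.62 TPM in AZ20. Because likeness over these 4 libraries chose the genes, their shared order of libraries is no separate result.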

How the data were processed

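RNA-seq of 4 libraries of FACS-isolated pachytene spermatocytes was used (paired reads of 150 bp). Per the labels and methods, the authors used Trimmomatic 0.39 for trimming, STAR 2.5.4b for alignment to GRCm38 (mm10) with unique alignments only, and featureCounts 2.0.1 for counting on refGene genes. They deposited TPM derived from those counts. The 92 lines without a gene name were left out.

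Each gene has 1 length in all libraries, so the ratios of its TPM values gave back whole reads, for 100.0% of the 16857 genes above 0 (within 0.0005 reads, or 1e-07 of the number where that is more). For a gene above 0 in 1 library only, such a match is certain, and with few libraries above 0 it can arise by chance. The 100.0% therefore does not measure the recovery of such genes. The Tssk genes were above 0 in every library. TPM ratios do not show a factor common to all reads of a gene, so reads were raised by a whole factor for 1648 genes, using annotated transcript lengths. The lengths of the Tssk genes needed no such step. The recovery was tested on simulated data.

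Log2(TPM + 1) was fitted with limma 3.58.1 (R 4.3.3, variance trend) on all 4 libraries, for genes whose mean exceeded 1 TPM in either condition, without the replicate number, which the methods do not name as a term. Since the cells of a mouse were split, libraries with the same number were taken as pairs, and the replicate block was the alternative. The deviations of same-numbered libraries from their group means correlated at 0.229 over 10316 genes. With 2 libraries against 2, an exact permutation test cannot give a two-sided p below 0.333, so none was used for single values. Python 3.11.15, pandas 2.3.3, numpy 2.4.6, scipy 1.17.1 and Biopython 1.88 were used for other values. The limma step was tested on simulated data that held no difference between pairs and no changes in the genes with fewest reads. That test therefore gives no power for members with few reads.

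The members and gene lists were chosen with earlier results of these data known. Named genes were the 6 members, all partner genes, in each other list the genes called, the highest by TPM and those with the highest and lowest change, and the 3 genes nearest to the highest member. Ndufa13, Stk11, Ctsl, Tsks and the other named markers of other testis cells were named after their values were seen. So were H2afx, Pgk2 and Ccna1 in the comparison of pairs. Alternatives were pseudocounts of 0.1 and 0.01, no filter and a mean TPM above 5, the replicate block, no trend, quantile normalization, median-ratio size factors, leaving out each library, and voom on the recovered reads.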

Additional observations from a re-analysis of the deposited data

How the results depend on the processing

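Under every alternative 0 members were called with AZ20, but with a mean TPM above 5 only Tssk2 was tested. With the replicate block, 1 member (Tssk2) had an adjusted p under 0.05 in place of 0, and 2 spermatid genes were called in place of 0. The block changed no other count of calls among the lists. Quantile normalization moved the median over all genes from 0.07 to -0.07, the change of Tssk1 from 0.21 to -0.056, and those of Tssk3, Tssk4 and Tssk6 to 0.080, 0.0054 and 0.060. Leaving out 1 library gave -0.66 to 1.09 for Tssk1, 0.23 to 1.73 for Tssk2, -0.38 to 1.25 for Tssk3, 0.15 to 0.40 for Tssk4 and 0.13 to 0.69 for Tssk6. Tssk1 was at -0.66 without AZ20 replicate 1. Tssk3 was at -0.38 without AZ20 replicate 1 and at -0.26 without Ctrl replicate 2. Without either AZ20 library 0 of all 10316 genes were called, so these fits say nothing about stability. Among the differences between the replicate pairs, 2 members were called, 1 with quantile normalization and 0 with a pseudocount of 0.01, with voom on the recovered reads and without the condition in the fit. Of the spermatid genes 12 were called there, 7 with quantile normalization, 6 with a pseudocount of 0.01, 2 with voom and 0 without the condition. Over all tested genes 195 were called higher and 29 lower there, and 106 and 20, 41 and 1, 7 and 1, and 0 in the same fits. The difference of Tssk4 was -0.029 with quantile normalization and that of Tssk6 was 0.038 with voom. That comparison could not be fitted without a library, since no residual degree of freedom is left. The cause of these shifts was not tested. Low read numbers, 8 or fewer for Tssk5 and 4 for Tssk3 in Ctrl replicate 2, limit the precision.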
